A study of Rattus norvegicus with 8 samples.

Results

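The MAP kinase phosphatases and the Sprouty and Spred proteins are the feedback brakes of growth factor and stress signalling, and 10 of their genes are described here in the left ventricle of PD5 and SHR rats. They are the phosphatase genes Dusp1, Dusp4, Dusp5, Dusp6, Dusp8 and Dusp10 and the genes Spry1, Spry2, Spry4 and Spred1, out of 17309 genes measured. They were chosen by family membership, with earlier results of these data known, and further genes of the families are described below. The value of a gene is its log2 signal averaged over the probe sets annotated to it and to no other gene. There were 4 to 9 probe sets per gene and 61 in all. The PD5 group held 4 males of a minimal congenic strain made on the SHR background. The SHR group held 4 males of the spontaneously hypertensive rat itself. All 8 animals were 2 months old, untreated, bred in-house and fed standard chow, and each gave 1 array of left ventricular RNA. PD5 is a single congenic strain, and neither the donor nor the extent of its foreign segment is stated in the labels.

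MAP kinases are switched on by phosphorylation of a threonine and a tyrosine, and dual-specificity phosphatases switch them off by removing both. Dusp1, Dusp4 and Dusp5 encode nuclear enzymes, and their genes are themselves induced within minutes to hours of a stimulus. Dusp6 encodes a cytoplasmic enzyme selective for ERK, while the enzymes of Dusp8 and Dusp10 prefer the stress kinases JNK and p38. Sprouty and Spred proteins act further upstream, between receptor tyrosine kinases and Raf, and in the heart this network shapes growth and the response to load.

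The regions before the annotated starts of 9 of the 10 genes were in RefSeq's promoter table (GRCr8), and Dusp4 was not matched. Those of Dusp5, Dusp1 and Dusp6 are shown because these genes had a higher, a closely similar and a lower mean in PD5. Each run is the 250 bases before the start, 5′ to 3′ on the gene's strand, and capitals mark matches to any of the motifs named after them.
Dusp5, chr1:262543524-262543773, plus strand: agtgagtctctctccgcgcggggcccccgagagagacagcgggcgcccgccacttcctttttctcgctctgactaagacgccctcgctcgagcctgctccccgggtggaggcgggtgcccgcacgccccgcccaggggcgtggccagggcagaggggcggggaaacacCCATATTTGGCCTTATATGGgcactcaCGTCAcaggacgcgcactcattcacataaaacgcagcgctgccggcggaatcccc
Dusp1, chr10:17184603-17184852, plus strand: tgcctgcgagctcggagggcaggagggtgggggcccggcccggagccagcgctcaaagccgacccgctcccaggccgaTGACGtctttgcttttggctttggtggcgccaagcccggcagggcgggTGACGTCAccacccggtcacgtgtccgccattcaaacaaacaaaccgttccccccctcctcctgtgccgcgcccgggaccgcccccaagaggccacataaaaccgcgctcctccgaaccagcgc
Dusp6, chr7:35979354-35979603, plus strand: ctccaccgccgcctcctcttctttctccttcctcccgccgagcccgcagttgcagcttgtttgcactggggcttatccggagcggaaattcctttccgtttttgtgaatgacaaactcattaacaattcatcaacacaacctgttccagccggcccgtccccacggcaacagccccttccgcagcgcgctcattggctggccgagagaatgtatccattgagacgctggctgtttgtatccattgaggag
The motifs searched, on both strands, were the cAMP response element TGACGTCA, its core TGACG, the AP-1 site TGANTCA, the CArG box that serum response factor binds, the ETS site CCGGAA, the palindromic glucocorticoid response element and the Egr site GCGGGGGCG. Dusp5 held a pair of CArG boxes side by side, CCATATTTGG and CCTTATATGG, and the core of a cAMP response element on the opposite strand. CArG boxes were in 1.5% of the 33465 promoters of that length in the table and in no other member's. Dusp1 held the full element TGACGTCA, which by its letters also contains the core on both strands, and a further core upstream. The full element was in 1.59% of promoters and the core in 18.2%, and Spry2 held the core as well. Dusp6 held none of the motifs, nor did Spry1, Spred1 or Dusp10. The ETS site was in Spry2 and Spry4 and in 12.6% of promoters, and the Egr site in Dusp8 and in 2.45%. The AP-1 site, in 6.34% of promoters, and the glucocorticoid response element, in 0.374%, were in none of the members. Matches describe letters only.

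The comparison asked how these genes differ between a congenic strain and the hypertensive strain it was made from. None of the 10 passed an adjusted p of 0.05 in limma, where 9 of 17309 genes (0.052%) did. At an unadjusted p under 0.05, 2 of 10 were higher in PD5 (Dusp4 and Dusp5), where 2.77% of all genes were, and 2 of 10 were lower (Dusp6 and Spry1), where 2.91% of all genes were. The 10 differences ran from -0.38 to 0.45 on the log2 scale, and their median was 0.115, against a median of 0 over all genes. Among the members, 7 lay above 0 and 3 below. In whole ventricle, fewer cells of a type and less RNA per cell cannot be told apart.

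**Figure D1:**
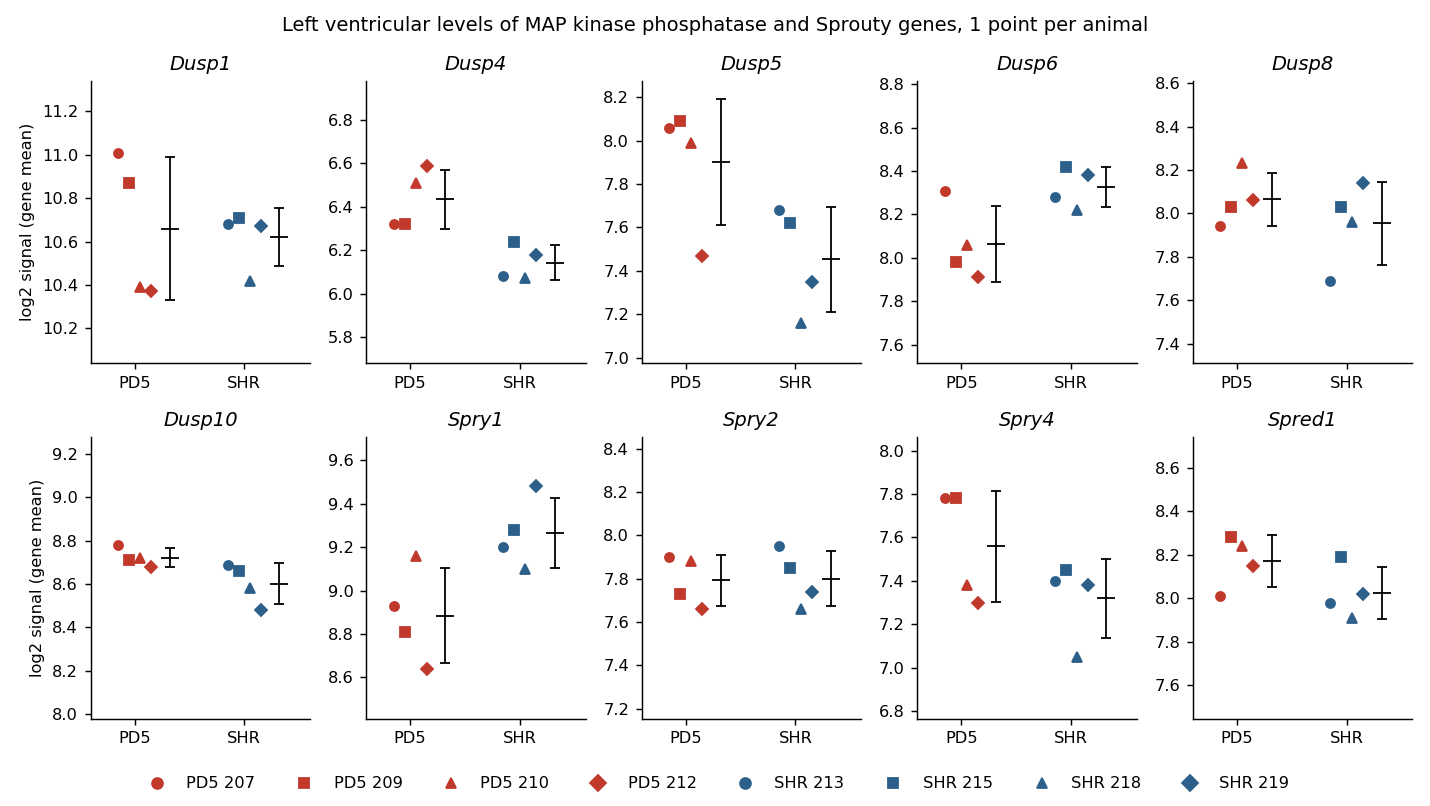
Mean log2 signal of each gene (vertical axis, each panel spanning the same range of 1.3 log2 units) in the 4 PD5 arrays (left) and the 4 SHR arrays (right), with 1 marker per animal and bars for the mean and SD. The strains are fully apart in Dusp4 only, while PD5 207 and 209 lie above PD5 210 and 212 in Dusp1 and Spry4.

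Of the nuclear enzymes, Dusp5, whose product inactivates ERK, had the largest difference among the members. Its log2 signal was 8.06, 8.09, 7.99 and 7.47 in PD5 207, 209, 210 and 212, against 7.68, 7.62, 7.16 and 7.35 in SHR 213, 215, 218 and 219. PD5 212 lay far under the other PD5 animals and inside the SHR range, so the groups overlapped. Dusp5 averaged 7.90 ± 0.29 in PD5 and 7.45 ± 0.24 in SHR (± SD over 4 animals each), so that PD5 minus SHR was 0.45 (SE 0.16, 95% interval 0.09 to 0.81). Its unadjusted limma p was 0.0208 and its adjusted p 0.775. The unadjusted p exceeded 0.05 without PD5 207, PD5 209 or SHR 218, where the differences were 0.398, 0.388 and 0.351 and the limma p-values, in that order, 0.0575, 0.0571 and 0.0602.

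The low value of PD5 212 came from 1 of the 6 Dusp5 probe sets. That probe set read 7.87, 7.87, 7.88 and 4.39 in PD5 207, 209, 210 and 212, against 7.86, 7.50, 7.56 and 7.52 in SHR 213, 215, 218 and 219. It was the only Dusp5 probe set below 0 in PD5 minus SHR, at -0.61, while the other 5 lay between 0.34 and 0.90. Of those, 4 had an unadjusted p under 0.05, as 2.55% of all probe sets on the array did on the higher side, and 3 had groups that did not overlap, as 1.43% did on that side. Over the other 5 probe sets, a choice made after these values were seen, Dusp5 was 8.10, 8.13, 8.01 and 8.09 in the PD5 arrays, against 7.65, 7.64, 7.08 and 7.32 in the SHR arrays. The PD5 animals were then nearly level, and all lay above every SHR animal. The log2 difference was 0.66 (SE 0.13, 95% interval 0.38 to 0.94), with a limma adjusted p of 0.216, which did not pass either.

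Dusp4, whose nuclear product acts on ERK and JNK, was the only member whose groups did not overlap, as in 1.59% of all genes in that direction. Its log2 signal was 6.32, 6.32, 6.51 and 6.59 in the PD5 arrays, against 6.08, 6.24, 6.07 and 6.18 in the SHR arrays. The gap between the lowest PD5 and the highest SHR animal was narrow. Dusp4 averaged 6.43 ± 0.13 in PD5 and 6.14 ± 0.08 in SHR (± SD over 4 animals each), so that PD5 minus SHR was 0.29 (SE 0.08, 95% interval 0.10 to 0.48) or 1.22-fold. Its limma p was 0.00638 and its adjusted p 0.585. With any 1 array left out the difference stayed between 0.24 and 0.33 and the unadjusted p between 0.00551 and 0.0201. The brightest of its 4 probe sets did not show the difference: it lay at -0.03, and the other 3 between 0.24 and 0.49.

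Dusp1, the archetypal inducible phosphatase, which acts on p38, JNK and ERK and is also induced by glucocorticoids, had nearly the same mean in both strains. It read 11.01, 10.87, 10.39 and 10.37 in the PD5 arrays, against 10.68, 10.71, 10.42 and 10.67 in the SHR arrays. The PD5 animals spanned a wider range and fell on both sides of the SHR animals, 207 and 209 above and 210 and 212 below. The difference was 0.04 (SE 0.15, adjusted p = 0.995 in limma), with a 95% interval from -0.30 to 0.39. Its sign depended on single animals, from -0.07 without PD5 207 to 0.14 without PD5 212. All 6 Dusp1 probe sets lay between -0.10 and 0.14.

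Dusp6, the cytoplasmic ERK phosphatase, was lower in PD5. It read 8.31, 7.98, 8.06 and 7.91 in the PD5 arrays, against 8.28, 8.42, 8.22 and 8.38 in the SHR arrays. PD5 207 lay among the SHR animals, and the other 3 PD5 animals lay below all of them. Dusp6 averaged 8.06 ± 0.17 in PD5 and 8.32 ± 0.09 in SHR (± SD over 4 animals each), so that PD5 minus SHR was -0.26 (SE 0.09, 95% interval -0.47 to -0.05). Its limma p was 0.0228 and its adjusted p 0.775. The unadjusted p exceeded 0.05 without PD5 209, PD5 212, SHR 215 or SHR 219, where the differences were -0.231, -0.207, -0.228 and -0.241 and the limma p-values, in that order, 0.0598, 0.0673, 0.0609 and 0.0516. All 5 probe sets had lower means in PD5, between -0.37 and -0.15, and none of them reached an unadjusted p under 0.05 alone.

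The genes of the stress kinase phosphatases had differences near 0.1 with intervals that reach across 0. Dusp8 read 7.94, 8.03, 8.23 and 8.06 in the PD5 arrays, against 7.69, 8.03, 7.96 and 8.14 in the SHR arrays, with a difference of 0.11 (95% interval -0.13 to 0.35). Of its 9 probe sets 7 lay above 0 and 2 below, from -0.43 to 0.37, and 1 of the 7 had groups that did not overlap, where 1.43% of all probe sets were higher without overlap. The difference of Dusp8 was 0.022 without SHR 213, 0.055 without PD5 210 and 0.173 without SHR 219, and 0.277 in its brightest probe set. Dusp10 read 8.78, 8.71, 8.72 and 8.68 in the PD5 arrays, against 8.69, 8.66, 8.58 and 8.48 in the SHR arrays, a difference of 0.12 (95% interval -0.03 to 0.27). The PD5 animals of Dusp10 were almost level, and only PD5 212 fell just inside the SHR range. Its difference was 0.078 without SHR 219. Limma adjusted p-values were 0.989 for Dusp8 and 0.934 for Dusp10.

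**Figure D2:**
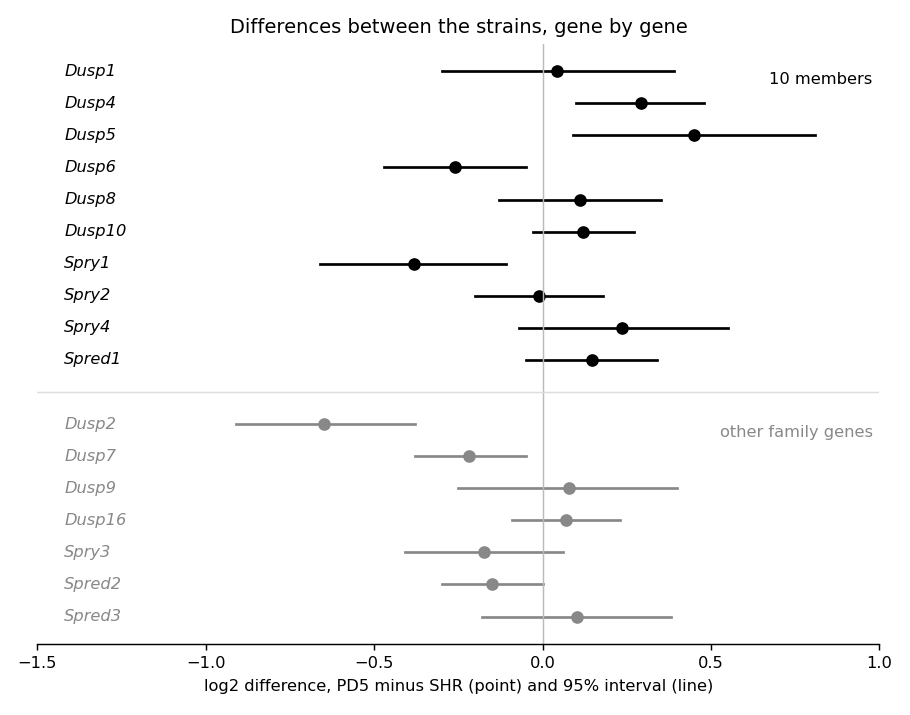
Log2 difference of each gene, PD5 minus SHR (horizontal axis), as a point with its unadjusted 95% limma interval, for the 10 members (black) and 7 further genes of the same families (grey). The intervals of Dusp4 and Dusp5 lie above 0 and those of Dusp6, Spry1, Dusp2, Dusp7 and Spred2 below.

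When the phosphatases were split by the place of their proteins, the nuclear and the cytoplasmic mean lay on opposite sides of 0. The mean of Dusp1, Dusp4 and Dusp5 was 8.47, 8.43, 8.30 and 8.14 in the PD5 arrays, against 8.15, 8.19, 7.88 and 8.07 in the SHR arrays, a difference of 0.26, while Dusp6, the only member on the cytoplasmic side, was at -0.26. Within each array, the nuclear mean minus Dusp6 was 0.16, 0.45, 0.23 and 0.24 in PD5 207, 209, 210 and 212, against -0.14, -0.23, -0.33 and -0.31 in SHR 213, 215, 218 and 219. This within-array balance was higher in every PD5 animal than in any SHR animal. It averaged 0.27 ± 0.12 in PD5 and -0.25 ± 0.09 in SHR (± SD over 4 animals each). It was not tested, because it is a score over chosen genes, and its zero point has no meaning across probe sets. The mean of Dusp8 and Dusp10 differed by 0.12, and counting both as cytoplasmic beside Dusp6 brought that side to -0.01. The split also depended on which further family genes were counted. Adding Dusp2 brought the nuclear difference to 0.034, and adding Dusp7 and Dusp9 to Dusp6 brought the cytoplasmic difference to -0.133.

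Among the Sprouty and Spred genes, Spry1, which encodes an inhibitor of receptor tyrosine kinase signalling, had lower means in PD5 in every probe set. It read 8.93, 8.81, 9.16 and 8.64 in the PD5 arrays, against 9.20, 9.28, 9.10 and 9.48 in the SHR arrays. PD5 210 lay above the lowest SHR animal, and the other 3 PD5 animals lay below all SHR animals. Spry1 averaged 8.88 ± 0.22 in PD5 and 9.26 ± 0.16 in SHR (± SD over 4 animals each), so that PD5 minus SHR was -0.38 (SE 0.12, 95% interval -0.66 to -0.11), with a limma p of 0.0117 and an adjusted p of 0.688. Of its 9 probe sets, all on the lower side, 5 were at an unadjusted p under 0.05 and 4 had groups that did not overlap. Over all probe sets on the array, 2.43% were lower at that p and 1.43% were lower without overlap. With any 1 array left out the difference stayed between -0.472 and -0.299 and the unadjusted limma p between 0.00245 and 0.0333.

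The other members of that class did not reach an unadjusted p under 0.05. Spry4, another inhibitor of Ras and ERK signalling, read 7.78, 7.78, 7.38 and 7.30 in the PD5 arrays, against 7.40, 7.45, 7.05 and 7.38 in the SHR arrays. PD5 207 and 209 lay above all SHR animals and PD5 210 and 212 among them, the same split of animals as in Dusp1. The difference was 0.24 (95% interval -0.07 to 0.55, adjusted p = 0.954 in limma), and all 4 probe sets lay between 0.19 and 0.28. Without SHR 218 the difference was 0.145. Spred1, which brings neurofibromin to Ras, read 8.01, 8.28, 8.24 and 8.15 in the PD5 arrays, against 7.98, 8.19, 7.91 and 8.02 in the SHR arrays, a difference of 0.15 (95% interval -0.05 to 0.34). Spry2, the close relative of Spry1, read 7.90, 7.73, 7.88 and 7.66 in the PD5 arrays, against 7.95, 7.85, 7.66 and 7.74 in the SHR arrays. Its ranges nearly coincided, with a difference of -0.01 (95% interval -0.20 to 0.18). The 4 genes together averaged 8.10 ± 0.11 in PD5 and 8.10 ± 0.12 in SHR (± SD over 4 animals each).

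**Figure D3:**
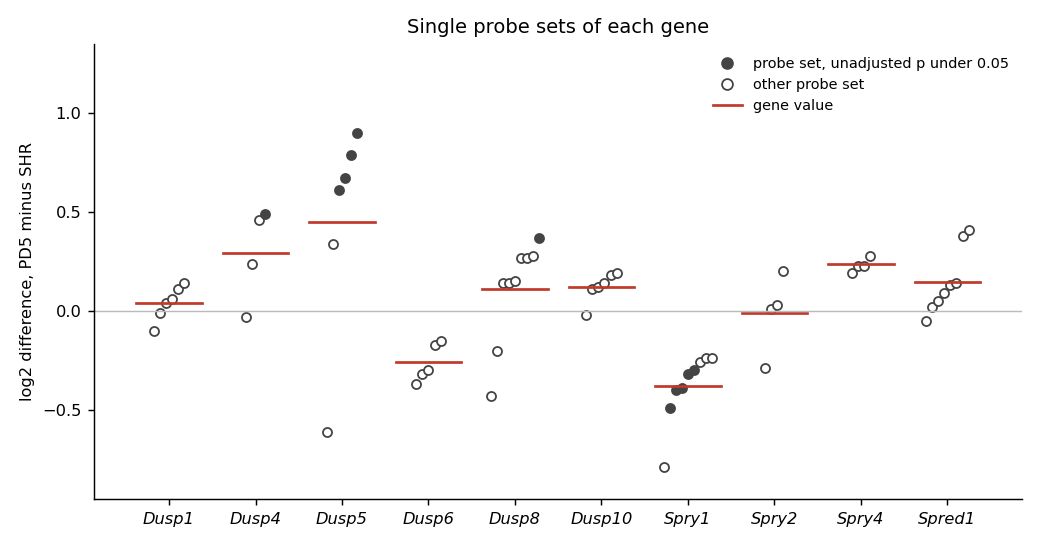
Log2 difference, PD5 minus SHR (vertical axis), of each of the 61 probe sets of the 10 genes, filled where the unadjusted p was under 0.05, with the gene value as a red line. All probe sets of Dusp6 and Spry1 lie below 0 and all of Spry4 above, and 1 Dusp5 probe set at -0.61 stands far from the other 5.

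Over the 61 probe sets of the members, 38 lay above 0 and 23 below. An unadjusted p under 0.05 was reached by 6 on the higher side, against 2.55% of all 220231 probe sets, and by 5 on the lower side, against 2.43%. The 6 were 4 of Dusp5 and 1 each of Dusp4 and Dusp8, and the 5 were all of Spry1. Probe sets of a gene read the same RNA and are not separate evidence. None passed over all probe sets, where 2 (0.000908%) did, and the smallest adjusted p among the members was 0.711, in Dusp5.

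The rest of the family was measured in 7 genes, of which 3 were lower and 0 higher in PD5 at an unadjusted p under 0.05, where 2.91% of all genes were lower and 2.77% higher. None passed the adjusted threshold. Dusp2, a nuclear phosphatase best known from activated immune cells, read 6.74, 6.55, 6.56 and 6.70 in the PD5 arrays, against 7.12, 7.14, 7.25 and 7.64 in the SHR arrays. All PD5 animals lay below all SHR animals, as in 1.89% of all genes. The difference was -0.65 (SE 0.12, 95% interval -0.91 to -0.38, adjusted p = 0.184 in limma), larger in size than that of any of the 10 members. Of the alternatives, it passed only with a trended robust variance (limma adjusted p = 0.0141), a setting that called 47 genes in all, against 9. Under the others its difference lay between -0.808 and -0.493 and its limma adjusted p between 0.0763 and 0.926. Dusp7, a cytoplasmic ERK phosphatase related to Dusp6, read 10.72, 10.78, 10.96 and 10.89 in the PD5 arrays, against 11.07, 10.98, 11.06 and 11.11 in the SHR arrays. Its groups did not overlap either, with a difference of -0.22 (95% interval -0.38 to -0.05, adjusted p = 0.748). Spred2 was at -0.15 (95% interval -0.30 to 0.00, adjusted p = 0.864), and Dusp9, Dusp16, Spry3 and Spred3 lay between -0.18 and 0.10.

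The genes of the kinases that these proteins restrain lay closer to 0. In the ERK cascade, from Grb2 and Ras to the ERK substrates of the RSK family, 12 of 17 listed genes were analysed here, and limma gave 0 with an unadjusted p under 0.05. Differences ran from -0.10 to 0.12, and the smallest p was that of the adaptor gene Grb2 at 0.12 (adjusted p = 0.966 in limma). In the JNK, p38 and ERK5 cascades all 15 genes lay between -0.09 and 0.10, again with 0 at an unadjusted p under 0.05, led by the kinase gene Map2k7 at 0.10 (adjusted p = 0.978 in limma). Among 23 receptor tyrosine kinases and ligands the median was 0.025. At an unadjusted p under 0.05, 2 were higher and 1 lower in PD5, where 2.77% of all genes were higher and 2.91% lower. Groups did not overlap in 2, both higher in PD5, as in 1.59% of all genes on that side. The growth factor gene Fgf9 was at -0.24 (SE 0.08), the platelet-derived growth factor gene Pdgfb at 0.22 (SE 0.08) and the receptor gene Fgfr2 at 0.19 (SE 0.08), with limma adjusted p-values from 0.775 to 0.867.

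Transcripts known to follow ERK activity were higher in 5 and lower in 0 of 16 measured genes at an unadjusted p under 0.05. Of all genes, 2.77% were higher and 2.91% lower at that p. None of the 16 passed the adjusted threshold. This list was chosen with earlier results of these data known, so its counts beside all genes are no independent evidence. Fos, a component of AP-1, read 7.73, 8.33, 7.11 and 7.21 in the PD5 arrays, against 6.66, 6.07, 5.27 and 5.78 in the SHR arrays. The zinc finger gene Egr1 read 10.04, 10.26, 9.38 and 9.11 in the PD5 arrays, against 9.51, 8.81, 8.23 and 7.95 in the SHR arrays. PD5 207 and 209 were the highest animals in both, as in Dusp1 and Spry4. The differences were 1.65 for Fos (SE 0.33), 0.51 for Egr3 (SE 0.12), 0.71 for Junb (SE 0.19) and 1.07 for Egr1 (SE 0.36), with limma adjusted p-values from 0.242 to 0.749. The median of the list was 0.141, with 13 genes above 0 and 3 below. Those below were Fosl1, Myc and Etv4, at -0.26, -0.11 and -0.02, while Maff, Etv5 and Jun lay between 0.01 and 0.07. Of the members that ERK signalling also induces in many cells, Dusp4, Dusp5 and Spry4 lay above 0, at 0.29, 0.45 and 0.24, and Dusp6 and Spry1 below, at -0.26 and -0.38, with Dusp1 and Spry2 near 0, at 0.04 and -0.01.

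Genes that respond to glucocorticoids, listed because Dusp1 is one of them, were lower in 10 and higher in 0 of 11 measured genes at an unadjusted p under 0.05. Of all genes, 2.91% were lower and 2.77% higher at that p. The list was taken with its shift in these samples known, so its direction is no independent evidence. Nfkbia, an inhibitor of NF-κB, fell by 0.91 (SE 0.08, adjusted p = 0.0117 in limma) and Ddit4, an inhibitor of mTOR signalling, fell by 1.03 (SE 0.13, adjusted p = 0.0404). Klf9, a transcription factor gene, was at -0.51 and the clock gene Per1 at -0.70, each with an adjusted p of 0.128. The median of the list was -0.699. Dusp1 was at 0.04, with a 95% interval from -0.30 to 0.39.

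**Figure D4:**
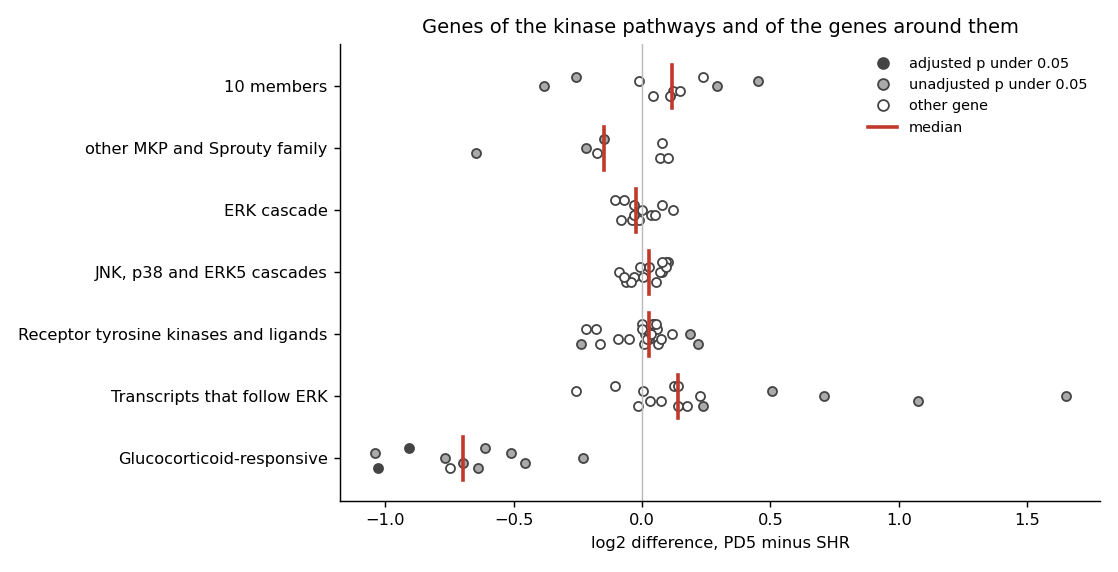
Log2 difference, PD5 minus SHR (horizontal axis), of each measured gene of 7 lists (rows), shaded by the limma p, with the median of each list as a red bar. The 2 kinase cascades stay between -0.10 and 0.12, the 10 members reach from -0.38 to 0.45, and the glucocorticoid-responsive genes lie below 0.

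The cardiomyocyte markers Myh6, Tnnt2, Tnni3, Ryr2 and Pln lay at or above the 98.2 percentile of gene levels, as the tissue label says. Across 12 marker lists, 43 of 53 listed genes were measured and none passed the adjusted threshold. At an unadjusted p under 0.05 were 6 of the 43, where 2.77% of all genes were higher and 2.91% lower. The 3 atrial markers measured averaged 9.74 to 10.58 in the PD5 animals and 8.65 to 10.97 in the SHR animals. Among the SHR animals, 215 was lowest and 219 highest, with Myl7 at 7.23 and 10.41. The mean of the 5 adipocyte markers ran from 5.28 to 7.17 in PD5 and from 5.39 to 5.60 in SHR, with PD5 210 highest. The mean of the 4 mesothelial markers ran from 6.26 to 6.56 in PD5 and from 6.45 to 7.24 in SHR, and all 4 had lower means in PD5, as Dusp6 and Spry1 did. That of the 5 macrophage markers ran from 8.00 to 8.07 in PD5 and from 8.10 to 8.31 in SHR, beside the lower Dusp2. Of these, Cd163 was at -0.41, Csf1r, Adgre1 and C1qa lay between -0.11 and -0.09, and Cd68 was at 0.05. The part of these cells in the differences was not tested. PD5 210 and SHR 219 correlated least with the rest of the arrays (mean r of 0.952 and 0.950). Without both, a choice made after seeing the data, 1 member was higher (Dusp4) and 1 lower (Spry1) at an unadjusted p under 0.05.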

How the data were processed

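Log2 signals of 220231 probe sets on 8 whole-transcript arrays, 1 per animal, were used as deposited. The authors processed them with Partek 6.6, per the submitters' processing notes, and how they corrected the background, normalized and summarised is not stated there. Array medians lay between 6.93 and 6.98. The platform annotation named 1 gene for 166557 probe sets, and symbols were updated through the GRCr8 gene table, with 14377 current, 2837 replaced and 95 unmatched. PD5 minus SHR was tested with limma 3.58.1 (lmFit, eBayes) in R 4.3.3, two-sided, over all 17309 genes and over all probe sets, with Benjamini-Hochberg adjustment and a threshold of 0.05. Intervals are unadjusted 95% intervals. All genes were kept, dim ones included, and the number of arrays limits the precision.

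The members and lists were chosen with earlier results of these data known. Named genes are all members and, per list, those past the adjusted threshold with up to 4 of smallest unadjusted p under 0.05, or else the 1 gene of smallest p. The other genes named were chosen after their values were seen. The samples are separate animals of unstated litter, batch and scan date. Animal numbers do not pair the strains and follow the strain, so order and strain cannot be told apart. The functions were tested on simulated data. Alternatives were other probe set summaries, scalings, variance models, a filter on dim genes and left-out arrays.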

Additional observations from a re-analysis of the deposited data

Results flagged for a closer look

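In 13 of 142 groups of 4 values (the 10 genes and their 61 probe sets, each strain apart), 1 animal stood far from the other 3, with its gap to the nearest of them making up over 0.82 of the whole range of the group. Chance gives about 1 in 20. Among gene values, SHR 218 was low in Dusp1 (10.42 against 10.67 to 10.71, gap share 0.86) and in Spry4 (7.05 against 7.38 to 7.45, 0.831), and PD5 212 was low in Dusp5 (7.47 against 7.99 to 8.09, 0.838).

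The other 10 were single probe sets. The Dusp5 probe set that read 4.39 in PD5 212, with the other 3 PD5 animals at 7.87 to 7.88, had a gap share of 0.997. In the same probe set SHR 213 was high (0.833), and in another of Dusp5 so was PD5 209 (0.923). PD5 210 was high in 1 probe set of Dusp4 (0.83) and 1 of Spry1 (0.931), and SHR 219 in 1 of Spry1 (0.841). SHR 215 was high in 1 probe set each of Dusp1 (0.917), Dusp8 (0.848) and Spred1 (0.872), and SHR 218 was low in 1 of Spred1 (0.895).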

How the results depend on the processing

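None of the 10 members passed the adjusted threshold, and none of their 61 probe sets, under any alternative tried (17 for genes and 11 for probe sets). At an unadjusted p under 0.05 the 2 higher members became 1 without moderation and 1 without both PD5 210 and SHR 219, and 1 to 3 with 1 array left out. The 2 lower members became 1 with the median of the probe sets and 1 without those 2 arrays, and 1 to 2 with 1 array left out. The sign of Dusp1 turned with left-out arrays (-0.074 to 0.14), as did that of Spry2 (-0.056 to 0.039). Spry2 was also at 0.117 with the median and at 0.010 with the brightest probe set, where Dusp4 was at -0.028. In that setting the 2 higher members at an unadjusted p under 0.05 were Dusp5 and Spry4. The other 7 members kept their direction under all alternatives. The mean of Dusp8 and Dusp10 was 0.208 with the brightest probe set. Counting both with Dusp6 put the cytoplasmic mean at -0.010, and counting Dusp7 and Dusp9 with Dusp6 instead put it at -0.133. Counting Dusp2 put the nuclear mean at 0.034. The 2 genes called among the pathway lists became 0 with the brightest probe set, 1 with median centring, 8 with a trended robust variance, 0 without moderation, 0 without both arrays and 0 to 2 with 1 left out. The 9 genes called in all became 0, 5, 47, 0, 0 and 1 to 7 under the same settings. Causes were not tested. No paired analysis was possible because the strains share no animal number. Detection calls were not used here, so how far the dimmer genes, such as Dusp4 at the 42.2 percentile of gene levels, lie above background is unknown.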
